A study of Homo sapiens with 4 samples.

Results

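The miR-17-92 cluster is a group of 6 microRNAs that are cut from 1 primary transcript: hsa-miR-17, hsa-miR-18a, hsa-miR-19a, hsa-miR-20a, hsa-miR-19b and hsa-miR-92a, written below with no species prefix. They were taken by assay name from a panel of 377 human miRNA assays, and all 6 were on it. Levels were read by quantitative PCR in RPMI8226, an established cell line from multiple myeloma, a cancer of antibody-producing plasma cells. The 4 groups, of 1 sample each, were the hypoxic exosome fraction (medium of cells kept at 1% oxygen), the normoxic exosome fraction (20% oxygen), hypoxic cells and normoxic cells. Every culture lasted 24 h, and the labels name no other treatment. The exosome fraction, the small vesicles that cells release, was precipitated by a commercial reagent from filtered medium, and its RNA was pre-amplified while that of the cells was not. With 1 sample per group and 1 well per miRNA there is no replicate error, so no difference between groups was tested.

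A microRNA is a short RNA that lowers the output of messenger RNAs which pair with its seed, bases 2 to 8 counted from the 5′ end. The miR-17-92 cluster lies in the non-coding gene MIR17HG, is switched on by the transcription factor MYC, and is amplified or overexpressed in many lymphomas. Its known targets include the cell death gene BIM, cell cycle regulators of the E2F family and, reported in lung cancer cells, the hypoxia factor HIF-1α. Because the members leave 1 transcript but are cut from separate hairpins, their levels can part from one another after transcription.

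The mature sequences are shown because miR-19a and miR-19b, which differ by a single base, gave quite different values, and because members with the same seed have close copies elsewhere in the genome. RefSeq (GRCh38.p14) places the 6 hairpins on the plus strand within 787 bases, chr13:91350605-91351391, inside MIR17HG (chr13:91347687-91354577). The mature forms below are in genome order, 5′ to 3′, with the seed in capitals.
miR-17 (chr13:91350618-91350640): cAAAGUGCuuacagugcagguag
miR-18a (chr13:91350756-91350778): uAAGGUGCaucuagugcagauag
miR-19a (chr13:91350939-91350961): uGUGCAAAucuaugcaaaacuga
miR-20a (chr13:91351072-91351094): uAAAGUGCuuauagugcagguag
miR-19b (chr13:91351245-91351267): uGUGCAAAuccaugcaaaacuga
miR-92a (chr13:91351361-91351382): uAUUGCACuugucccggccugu

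The members fall into 4 seed groups. miR-17 and miR-20a share one seed, miR-19a and miR-19b share another, and miR-18a and miR-92a each have their own. miR-19a differs from miR-19b only by U11C, counted from the 5′ end. miR-17 differs from miR-20a by C1U and C12U.

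A related cluster on the X chromosome and another within MCM7 on chromosome 7 hold near copies. The mature forms of miR-19b and miR-92a are encoded a second time on the minus strand of X, at chrX:134169683-134169705 and chrX:134169544-134169565, so their assays read both genes. miR-106a, from the X cluster, differs from miR-17 only by C1A, and miR-18b differs from miR-18a only by A20U. How far the assays tell such pairs apart was not tested. The copies to which the results return are shown for comparison, each on the minus strand.
miR-106a (chrX:134170244-134170266): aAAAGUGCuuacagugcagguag
miR-93 (chr7:100093815-100093837): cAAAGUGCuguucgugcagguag
miR-25 (chr7:100093571-100093592): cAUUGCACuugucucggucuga

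Levels were recorded as the threshold cycle (Ct), the PCR cycle at which a well's fluorescence crosses a set line, so a lower Ct means more template. A Ct of 35 is the highest in the table and was read as not detected. A Ct under 35 was found for 219 miRNAs in the hypoxic exosome fraction, 221 in the normoxic exosome fraction, 155 in hypoxic cells and 162 in normoxic cells. All 6 blood-cell miRNA markers examined, among them miR-150 and miR-155 of lymphocytes, were detected in each sample, and the liver marker miR-122 in none. Markers of other tissues were present as well: 2 of 3 epithelial assays in every sample, and both muscle assays in each exosome fraction, with 1 of them in hypoxic and none in normoxic cells. The epithelial assays detected were miR-205 and miR-200c in cells, but miR-205 and miR-141 in the exosome fraction. The endothelial miR-126 was detected throughout, at Ct 21.97 in the hypoxic and 21.65 in the normoxic exosome fraction, and at 25.97 in hypoxic and 25.98 in normoxic cells. Of 3 red-cell assays, 1 was detected in the normoxic exosome fraction and none in the other samples. The only repeat measurement is that of U6, an RNA of the spliceosome, with a Ct of 18.81 ± 0.12 in hypoxic cells and 18.82 ± 0.15 in normoxic cells (SD, n = 4 wells of 1 sample). These give an SD of 0.19 cycles for a difference between single wells of the cell cards. It describes an abundant RNA, and the exosome fraction has no such figure.

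All 6 members were detected in all 4 samples, with every Ct under 30. Assays differ in efficiency, so the Ct order of the members is a property of these assays and is not an order of molecule numbers. What can be compared across samples is how that order and the gaps within it shift.

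miR-19b was the strongest member throughout. Its Ct was 14.96 in the hypoxic and 14.34 in the normoxic exosome fraction, and 20.98 in hypoxic and 21.02 in normoxic cells. It ranked 1 of 377 in each sample except normoxic cells, where it ranked 2. The assay ahead of it there, miR-493 at Ct 20.94, was at the ceiling of 35 in every other sample. That single well also counts in the ranks of the other members in normoxic cells.

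miR-17 and miR-20a, the pair with the E2F-directed seed, came next. miR-17 stood at Ct 15.96 in the hypoxic and 15.83 in the normoxic exosome fraction, and at 21.95 in hypoxic and 21.88 in normoxic cells. miR-20a stood at 15.96 in the hypoxic and 15.72 in the normoxic exosome fraction, and at 22.96 in hypoxic and 22.63 in normoxic cells. Both ranked between 2 and 5 of 377 in every sample. In the exosome fraction the pair lay within 0.01 (hypoxia) and 0.10 (normoxia) cycles of each other, in cells within 1.02 (hypoxia) and 0.75 (normoxia).

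miR-19a, the near twin of miR-19b, stood further down the panel in the exosome fraction than in cells. Its Ct was 19.61 in the hypoxic and 19.99 in the normoxic exosome fraction, and 23.95 in hypoxic and 22.87 in normoxic cells. That put it at rank 16 and rank 20 in the hypoxic and normoxic exosome fraction, and at rank 7 and rank 6 in hypoxic and normoxic cells.

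miR-92a, known to repress the integrin ITGA5 in endothelial cells, moved the other way between compartments. Its Ct was 17.93 in the hypoxic and 17.97 in the normoxic exosome fraction, and 26.98 in hypoxic and 26.97 in normoxic cells. Its rank was 7 and 9 in the hypoxic and normoxic exosome fraction, against 25 and 27 in hypoxic and normoxic cells.

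miR-18a, whose hairpin is known to need the RNA-binding protein hnRNP A1 for efficient cutting, had the highest Ct of the members in every sample. It stood at 22.22 in the hypoxic and 21.96 in the normoxic exosome fraction, and at 28.78 in hypoxic and 28.95 in normoxic cells. The span between the strongest and the weakest member was 7.26 cycles in the hypoxic and 7.62 in the normoxic exosome fraction, and 7.80 in hypoxic and 7.93 in normoxic cells.

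**Figure D1:**
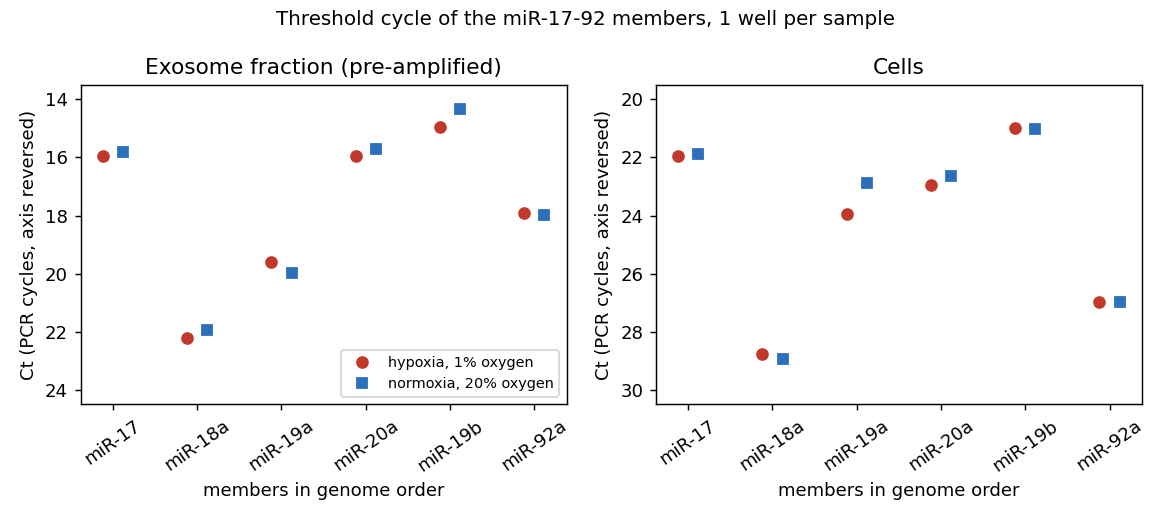
Ct in PCR cycles (vertical axis reversed, so more template lies higher) of the 6 members in genome order, in the exosome fraction (left) and in cells (right), with 1 well per point. In both compartments miR-19b lies highest and miR-18a lowest, and miR-19a and miR-92a exchange places between the panels.

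The Ct values of the whole panel pile up just below whole cycles, and those of the cluster do the same. Of 757 Ct values under the ceiling, 63.4% lay within 0.1 of a whole cycle, where an even spread would put 20%. For the members this held for 15 of 24 values, or 62.5%. The decimal part was 0.9 or more in 14 of these 24 and in 55.7% of all values. In hypoxic cells it was so for 5 of the 6 members, and in the hypoxic exosome fraction for 4. The U6 wells of the cells were near a whole cycle in 2 of 8 cases. A change well under 1 cycle cannot be read finely. Its source was not tested.

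**Figure D2:**
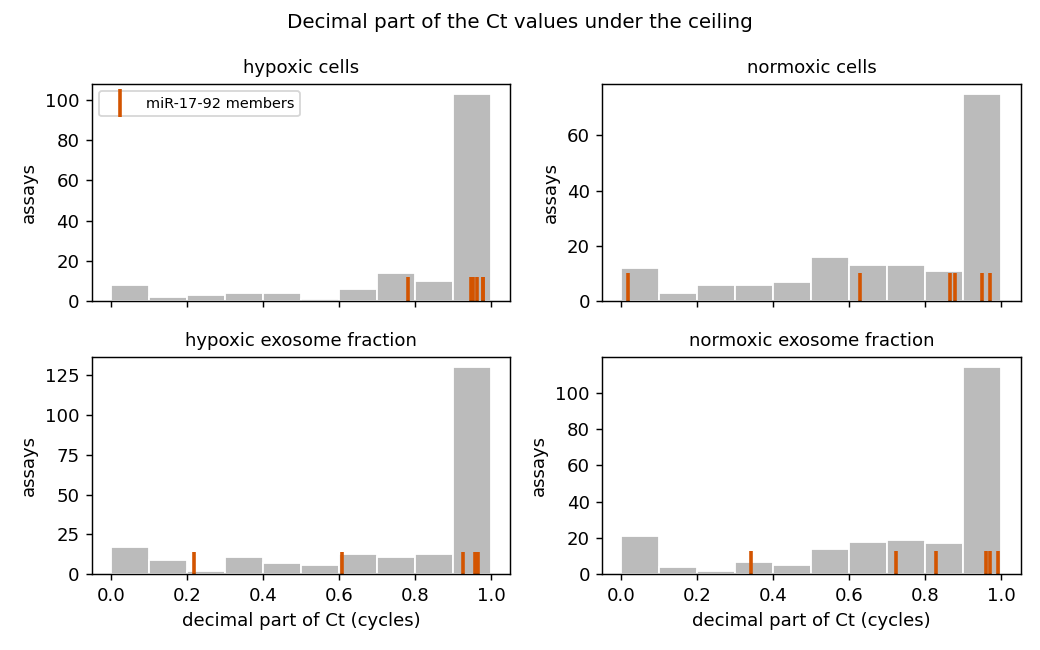
Number of assays (vertical axis) by the decimal part of their Ct (horizontal axis, cycles) in each sample, with the 6 members as orange marks. The tallest bar in every panel is the last, from 0.9 to 1, with 103 of 155 values in hypoxic cells and 75 of 162 in normoxic cells.

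The first comparison asked how the members differed between hypoxic and normoxic cells, after subtracting the mean Ct of the U6 wells. miR-19a alone among the members passed 2-fold, being 2.13-fold lower in hypoxic cells (log2 change -1.09). The other 5 lay between -0.34 (miR-20a) and 0.16 (miR-18a), with miR-17 at -0.07, miR-92a at -0.02 and miR-19b at 0.03. Each of these 3 changes is smaller than the 0.19-cycle spread between single U6 wells, and so is that of miR-18a. miR-210, the classical miRNA induced by hypoxia, was 11.7-fold higher in the same cells.

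One member of 6 past 2-fold has to be read against the panel, where 13.6% of the 147 miRNAs detected in both cell samples passed that line in either direction. Among miRNAs as strong as the members, with a Ct under 30 in both samples, it was 3.33% (2 of 60, miR-19a being one of them). By size of change miR-19a ranked 14 of 147. The median log2 change was -0.04 over the 6 members and 0.03 over the 147 miRNAs. miR-19a kept its place below the 2-fold line with RNU44 and RNU48 as normalizers (-1.24). The higher of its Ct values, that of hypoxic cells, lay within 0.1 of a whole cycle, and the lower did not.

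The gaps between members need no normalizer. Of the 15 pairs, 4 changed their Ct gap by more than 1 cycle between hypoxic and normoxic cells, each with miR-19a in it. These 4 restate the single shift of miR-19a, 1.09 cycles, and are not separate observations. Of the 1770 pairs in the panel with a Ct under 30, which likewise share assays, 6.10% passed 1 cycle. The gap from miR-19b to miR-19a was 2.97 cycles in hypoxic and 1.85 in normoxic cells. That from miR-17 to miR-19a was 2.01 cycles in hypoxic and 0.99 in normoxic cells. Among the 10 pairs without miR-19a the highest change was 0.50 cycles, and their median was 0.21, against 0.27 over all pairs of miRNAs with a Ct under 30.

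The second comparison asked the same of the exosome fraction, with the plant miRNA ath-miR159, added in equal amount at lysis, as normalizer. No member passed 2-fold. Neither did miR-210, with a log2 change of 0.39 for hypoxia over normoxia in this compartment. miR-19b was 1.48-fold lower in the hypoxic exosome fraction (log2 change -0.57) and miR-19a was 1.35-fold higher (0.44). These bracketed the other members: miR-18a was at -0.21, miR-20a at -0.19, miR-17 at -0.08 and miR-92a at 0.10. In the panel 7.39% of 203 miRNAs passed 2-fold, and of the 159 with a Ct under 30 in both samples 0 did (0%). The members' median log2 change was -0.13, beside -0.07 over the 203 miRNAs.

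Shifting the normalizer to each sample's median Ct added 0.20 to every value. The log2 changes of miR-17 (0.12) and miR-20a (0.01) then had the opposite sign, while miR-19a (0.64) and miR-19b (-0.37) kept theirs. The gap from miR-19b to miR-19a, which uses no normalizer, was 4.65 cycles in the hypoxic and 5.65 in the normoxic exosome fraction. This was the only one of 15 pairs whose gap differed by more than 1 cycle. In the panel 1.63% of pairs with a Ct under 30 did so.

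**Figure D3:**
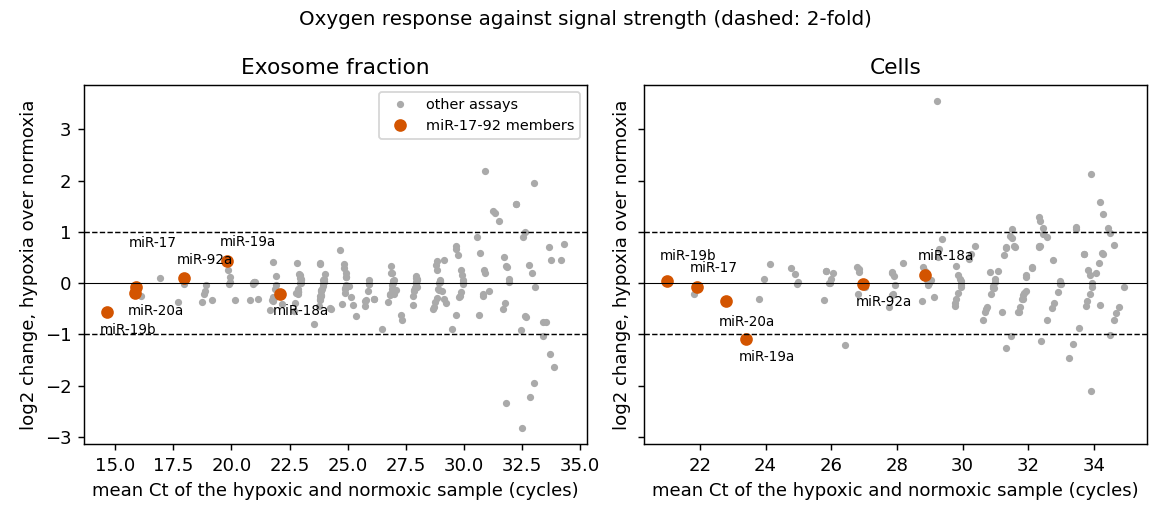
Log2 change of hypoxia over normoxia (vertical axis) against the mean Ct of the 2 samples (horizontal axis, cycles) for every miRNA detected in both, in the exosome fraction (left) and in cells (right). The members, in orange, lie at the strong end, where the grey points are narrowly spread, and of the 6 only miR-19a in cells is beyond a dashed 2-fold line.

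Set side by side, miR-19a was at 0.44 in the exosome fraction and -1.09 in cells, a difference in response of 1.53 on the log2 scale. Such a difference mixes normalizers, the spike-in in the exosome fraction and U6 in cells, as no control was detected in both. The spike-in, which the labels give for the cell samples too, was at the ceiling of 35 in both of them. U6, RNU44 and RNU48 were at the ceiling in the exosome fraction. With other normalizers the difference in response of miR-19a was 1.44 and 1.68. No other member had a difference past 2-fold, which 15.9% of the 138 miRNAs detected in all 4 samples had in either direction. By size of this difference miR-19a ranked 8 of 138, and counted from the top it ranked 4. Of the 58 with a Ct under 30 throughout, 3.45% passed that line. miR-19b leaned the opposite way, at -0.57 in the exosome fraction and 0.03 in cells, a difference of -0.60. The remaining members differed by -0.37 (miR-18a), 0.15 (miR-20a), 0.11 (miR-92a) and -0.0035 (miR-17). With other normalizers miR-17 was at -0.10 and 0.15.

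The third comparison set the exosome fraction against the cells. Because the exosome RNA alone was pre-amplified, the median Ct of the 138 miRNAs detected in all 4 samples was first subtracted within each sample. miR-92a was then higher in the exosome fraction, 4.2-fold in hypoxia and 4.14-fold in normoxia, and miR-19a was lower, 6.22-fold in hypoxia and 16.9-fold in normoxia. The 4 others lay within 2-fold: miR-20a was at 0.01 (hypoxia) and -0.04 (normoxia) on the log2 scale, miR-18a at -0.42 and 0.04, miR-19b at -0.96 and -0.27, and miR-17 at -0.99 and -0.90.

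Being 4-fold apart in the same direction at both oxygen levels was common, at 19.6% of the 138 miRNAs. It was uneven, with 23 miRNAs (16.7%) lower and 4 (2.9%) higher in the exosome fraction. miR-92a is one of those 4, and ranked 4 of 138 from the top in hypoxia and 7 in normoxia. miR-19a ranked 24 of 138 from the bottom in hypoxia and 7 in normoxia.

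The centre matters here, since the median difference over the 138 miRNAs was itself -0.83 in hypoxia and -0.44 in normoxia. With those medians set to 0, miR-92a stood at 2.90 (hypoxia) and 2.49 (normoxia), and miR-19a at -1.81 and -3.63, so that in hypoxia it no longer reached 4-fold, while again 19.6% of the panel did at both oxygen levels. This centring was chosen after seeing the data. The members' own median, -0.69 in hypoxia and -0.16 in normoxia, became 0.14 and 0.28, so no direction is given for the cluster as a whole.

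Gaps between members give the same picture with no centring. From miR-19b to miR-92a the gap was 2.97 cycles in the hypoxic exosome fraction against 6.0 in hypoxic cells, and 3.63 in the normoxic exosome fraction against 5.95 in normoxic cells. From miR-19a to miR-92a the order itself was reversed. miR-92a came 1.68 cycles before miR-19a in the hypoxic and 2.02 before it in the normoxic exosome fraction, but 3.03 cycles after it in hypoxic and 4.10 after it in normoxic cells. Pre-amplification of each assay in the exosome fraction alone cannot be told apart from a difference in content here.

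**Figure D4:**
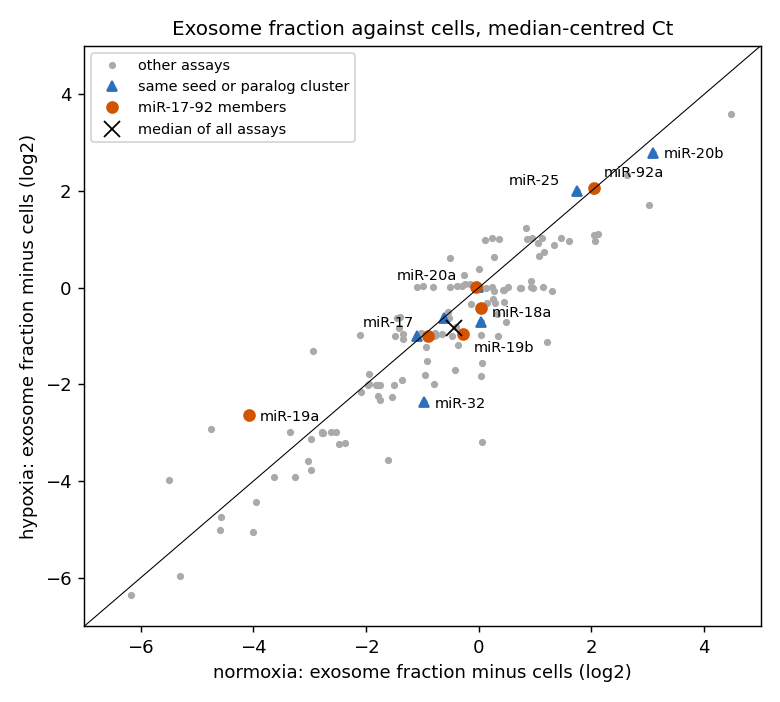
Exosome fraction minus cells on the log2 scale after median-centring, in hypoxia (vertical axis) and normoxia (horizontal axis), for the 138 miRNAs detected in all samples. miR-92a lies at the upper right with miR-25 and miR-20b, miR-19a at the lower left, and the other 4 members between -0.99 and 0.04 on both axes; the cross marks the median of all assays.

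The paralog clusters supply close relatives of the members. None of their 7 assays has the seed of miR-19a and miR-19b, so they offer no relative of miR-19a for comparison. Of these 7 assays 6 were detected in all 4 samples, and miR-363 stood at the ceiling in all. None of the 6 was past 2-fold between hypoxia and normoxia in either compartment. In the panel 13.6% of miRNAs in cells and 7.39% in the exosome fraction were, and 3.33% and 0% of those with a Ct under 30. The count thus does not set the paralogs apart. Their log2 changes lay between -0.34 (miR-106b) and 0.01 (miR-20b) in the exosome fraction and between -0.38 (miR-25) and 0.31 (miR-106b) in cells.

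miR-106a, the single-base relative of miR-17, lay at most 0.152 cycles from it in each sample. Its Ct was 15.96 in the hypoxic and 15.88 in the normoxic exosome fraction, and 21.94 in hypoxic and 21.73 in normoxic cells. miR-18b likewise stayed near miR-18a, with a gap of 0.70 and 0.71 cycles in the hypoxic and normoxic exosome fraction, and 0.49 and 0.05 in hypoxic and normoxic cells.

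The single-base pair inside the cluster had wider gaps: miR-19a and miR-19b were between 1.85 and 5.65 cycles apart. The size of a gap also carries assay efficiency, and the miR-19b assay reads both of its genes. It is therefore not a difference in molecule numbers. Assays with the same seed could also differ in distribution. Among the 6 detected assays with the seed of miR-17, the exosome fraction minus cells spanned -1.01 (miR-106a) to 2.80 (miR-20b) on the log2 scale in hypoxia and -1.10 to 3.10 in normoxia. Among the 3 detected assays with the seed of miR-92a, miR-25 was at 2.01 (hypoxia) and 1.74 (normoxia), close to miR-92a. miR-32 was at -2.37 (hypoxia) and -0.97 (normoxia), with a Ct of 33.61 in hypoxic and 34.96 in normoxic cells, near the ceiling. The 2 other seed relatives on the panel were not detected throughout: miR-367 was at the ceiling in all samples, and miR-519d was detected in the exosome fraction only.

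Likeness of pattern was measured as the root mean square difference in Ct over the 4 samples, after removing each sample's median and each assay's mean. In no case was the assay closest to a member another member, though few of the 137 assays compared are members. The closest member came in place 23 of 137 for miR-17, 15 for miR-18a, 16 for miR-20a and 13 for miR-19b. Those lay 0.20 to 0.24 cycles away, where the median assay lay 0.53 to 0.59 away. For miR-92a the closest member came in place 46, at 1.05 cycles beside a median of 1.35. miR-20a was closest to miR-93 (0.01 cycles), which has the same seed, and miR-92a to miR-25 (0.16 cycles), likewise. Next after these came miR-16 and miR-132 for miR-20a (0.11 cycles each), and miR-128 (0.20) and miR-361-5p (0.31) for miR-92a.

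The 3 nearest to miR-17 were miR-186, miR-30c and miR-324-3p (0.04 cycles each). Those nearest to miR-18a were miR-99b (0.05), miR-106b and miR-146a (0.10 each), and those nearest to miR-19b were miR-95 (0.07), let-7e (0.10) and miR-149 (0.15). miR-19a had no close match: its nearest, let-7d, was 0.29 cycles away, followed by miR-323-3p (0.38) and miR-628-5p (0.45). Its closest member, miR-17, came in place 51 of 137, at 1.27 cycles. With 4 samples and so many values just below a whole cycle, the likeness is a description only.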

How the data were processed

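Per the labels' protocols, miRNAs were reverse-transcribed with Megaplex pools (3 µl of a 50 µl eluate) and measured on TaqMan array cards, with ath-miR159 added at lysis. The deposited table of the authors holds unnormalized Ct per well for 384 wells. Their second deposited table gives the ratio of hypoxia over normoxia, made with Data Assist 3.1 per the design text. It differed from the log2 changes computed here by at most 0.000356 among detected miRNAs.

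Log2 changes are negative differences of normalized Ct, for assays under Ct 35 in both samples, with 2-fold as the line (4-fold between compartments). With 1 sample per group no test was possible, and a Ct carries no read depth. The calculation was tested on simulated data. Alternatives were other normalizers, single U6 wells left out, other centres and stricter Ct limits. Members, lists and tests were chosen with earlier results of these data known. Named miRNAs are the members, controls, paralogs, seed relatives, miR-210, cell markers and the 3 assays nearest to each member. miR-493 is named only for its rank in normoxic cells. Arms were assigned by name to RefSeq mature forms. Python 3.11.15, numpy 2.4.6 and pandas 2.3.3 were used.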

Additional observations from a re-analysis of the deposited data

Results flagged for a closer look

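In 4 members the log2 change of hypoxia over normoxia had opposite signs in the exosome fraction and in cells, as it had in 52.2% of the 138 miRNAs detected in all samples. The difference between the compartments was not tested, since each value comes from 1 sample. It was 1.53 for miR-19a, -0.60 for miR-19b, -0.37 for miR-18a and 0.11 for miR-92a. The count depends on the normalizer: it was 5 of 6 (50% of the panel) with the median Ct in both compartments, where miR-17 and miR-20a joined and miR-92a dropped out. It was 3 of 6 (42.8% of the panel) with RNU44 and RNU48 in cells, where miR-19b dropped out. For miR-18a, miR-19b and miR-92a the change in cells was smaller than the spread between single U6 wells.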

How the results depend on the processing

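In cells, the count of 1 member past 2-fold was the same under all 8 alternatives, and miR-19a lay between -1.24 and -1.03. All of them reuse the same miR-19a wells. The authors' ratio (-1.09) repeats the main calculation, and leaving out single U6 wells gave -1.13 to -1.03. These settings could hardly alter the count. In the exosome fraction the count stayed at 0 under all 3 alternatives, of which the authors' ratio again repeats the main calculation. The members' median log2 change was 0.066 when the median Ct of each sample replaced the spike-in, because that adds 0.20 to every value. The count of 1 member with a response difference past 2-fold was the same under both alternatives. In the comparison of compartments, the members' median in hypoxia was 0.24 with the mean Ct as centre, 0.30 with the median over assays under Ct 32 and 0.14 with the median difference set to 0. In normoxia these were 0.50, 0.59 and 0.28. Under each of these 3 centres 1 member, miR-92a, remained 4-fold apart at both oxygen levels, since miR-19a in hypoxia came to -1.71, -1.65 and -1.81. No paired analysis was possible because each group is 1 sample. The strong signals of the members keep them clear of the Ct ceiling, and precision is limited by single wells and by Ct values near whole cycles.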

Other observations

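miR-20a and miR-93, which share a seed but come from different chromosomes, kept an almost constant distance. Their Ct gap was 3.00 cycles in the hypoxic and 2.98 in the normoxic exosome fraction, and 2.99 in hypoxic and 3.01 in normoxic cells. miR-92a and miR-25 were 3.04 cycles apart in the hypoxic and 2.92 in the normoxic exosome fraction, and 2.98 in hypoxic and 2.62 in normoxic cells. In the hypoxic samples all Ct values of both pairs lay within 0.1 of a whole cycle, so those gaps are held near whole numbers. The normoxic Ct values of miR-20a and miR-93 were not that near a whole cycle. miR-20a and miR-20b, which differ from each other by U1C and U10C, were 4.99 and 5.19 cycles apart in the hypoxic and normoxic exosome fraction, but 7.77 and 8.33 in hypoxic and normoxic cells. miR-20b had the second-highest difference of the 138 miRNAs between the exosome fraction and cells at both oxygen levels.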
